A study of Mus musculus with 10 samples.

Results

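Genes of the cell division cycle, of DNA replication and of the DNA damage checkpoints were described in mouse urinary bladders challenged with LPS or SP. They were chosen by gene symbol: the cyclins (Ccn), the cyclin-dependent kinases and their inhibitors (Cdk, Cdkn), the Cdc genes other than the Cdc25 family, the E2f, Mcm, Orc, Pol, Btg, Gadd45, Chek, Rad, Plk, Bub and Mad genes, and Pcna, Rb1, Rbl1, Rbl2, Top2a, Rrm1 and Rrm2. The rule found 88 genes of the 4605 that a probe of the array names alone, on 89 of its 5030 probes, since Cdk11b had 2 probes. The rule uses symbols and no measured value. Among the genes the rule names, Mki67 and Trp53 are not analysed here.

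Clontech Atlas mouse plastic 5 K arrays, hybridized with radioactively labelled cDNA, gave the expression values of 10 conditions. Each array held the RNA of 8 bladders homogenized together, from female mice. The PAR1-/- mice lack the thrombin receptor PAR1, encoded by F2r, in all their cells, on a background enriched for C57BL/6J, and the WT mice were C57BL/6J. The bladders of both genotypes were instilled with LPS, an endotoxin of Escherichia coli, at 100 μg/ml and taken at 24 and 4 h, with SP (substance P, a sensory neuropeptide) and taken at 24 and 4 h, or with saline and taken at 24 h. SP is given as 20 μM for PAR1-/- and 10 μM for WT mice in the sample labels and as 10 μM for all mice in the methods. Every condition had 1 array, so a ratio between 2 arrays has no p-value, and the ratios at 4 h use saline taken at 24 h.

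Cells enter division when D cyclins with Cdk4 and Cdk6, and then E cyclins with Cdk2, phosphorylate the retinoblastoma proteins and release E2F transcription factors. E2F targets include genes of the origin complex, of the Mcm helicase, Cdc45, and genes of the polymerases and their clamp Pcna. The Cdkn inhibitors, the Btg proteins and the Gadd45, Chek and Rad proteins slow or guard the cycle. The urothelium of the adult bladder divides rarely and is known for a burst of division after injury. In RNA of whole bladders fewer cells of a type and less RNA per cell cannot be told apart.

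The promoters of 3 genes are shown. Their spots were bright on the array of WT bladders 4 h after LPS and on hardly any other (values below). They were picked for this after the values were seen. Rad9a, with a spot of the same kind, had no promoter entry. Each line gives the 250 bases before the transcription start, 5′ to 3′ on the strand of the gene, from the RefSeq promoter table of GRCm38.p6. The windows are chr16:18811973-18812222 for Cdc45, chr2:132253181-132253430 for Pcna and chr9:70421555-70421804 for Ccnb2, all on the minus strand. Capitals mark CCAAT, the core of the NF-Y site, or its reverse complement ATTGG.
Cdc45: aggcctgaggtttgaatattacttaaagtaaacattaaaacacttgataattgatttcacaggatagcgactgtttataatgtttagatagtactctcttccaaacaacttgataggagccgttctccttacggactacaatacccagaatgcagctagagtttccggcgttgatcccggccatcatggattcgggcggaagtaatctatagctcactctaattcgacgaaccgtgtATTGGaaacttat
Pcna: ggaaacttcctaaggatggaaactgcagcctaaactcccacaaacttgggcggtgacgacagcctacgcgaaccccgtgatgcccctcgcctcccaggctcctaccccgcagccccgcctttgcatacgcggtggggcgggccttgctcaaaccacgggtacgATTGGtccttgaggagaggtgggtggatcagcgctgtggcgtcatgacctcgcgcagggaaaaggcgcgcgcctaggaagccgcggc
Ccnb2: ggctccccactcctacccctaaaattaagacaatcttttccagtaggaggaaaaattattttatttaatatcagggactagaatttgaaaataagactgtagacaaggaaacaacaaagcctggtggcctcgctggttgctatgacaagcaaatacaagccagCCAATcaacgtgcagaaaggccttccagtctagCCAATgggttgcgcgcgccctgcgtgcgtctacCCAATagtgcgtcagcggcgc
Ccnb2 held 3 CCAAT boxes in the forward direction, and Cdc45 and Pcna held 1 reverse copy each. CCAAT on either strand stood in the promoters of 45 of 74 cell cycle genes found in the table (60.8%), and in those of 10133 of all 27025 genes (37.5%). Octamers of the E2F type (TTTGGCGC, TTTCGCGC, TTTCCCGC or TTTGCCGC, either strand) were found in 11 of the 74 genes (14.9%) and in 583 of the 27025 (2.16%). The 11 genes were Cdc6, Cdk1, Cdk2, Cdkn2a, Chek2, E2f3, Mcm5, Mcm6, Orc3, Pola1 and Rbl1. The 3 windows printed above held none of these octamers, and CCAAT was searched after that was seen, so no octamer overlapped a CCAAT box in them. These matches describe letters and not binding.

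The deposited values are standardized scores, from which the whole-number spot intensities were recovered for 4794 probes, 87 of the 89 cell cycle probes among them. Cdk16, a kinase of the Cdk family, and Rbl1, the pocket protein p107, were not recovered, and for both the highest deposited score was that of the PAR1-/- SP 4 h array (1.26 for Cdk16 and 1.41 for Rbl1), the array with the highest total. Intensities have arbitrary units and are compared for the same probe only. Each array has a background threshold, between 12.1 and 29, under which a spot was not distinguished from empty. The total of an array ran from 69106 to 275793, lowest on the PAR1-/- saline and highest on the PAR1-/- SP 4 h array, so ratios were computed after regression of each array on the mean of all arrays. On the WT LPS 24 h array 86.5% of all probes held the value 15, which leaves 10 of the 87 cell cycle probes above background there. F2r itself was above background at 51 on the PAR1-/- SP 4 h, 21 on the PAR1-/- SP 24 h and 195 on the WT LPS 4 h array, and was under it on the 7 others. The position of the F2r spot relative to the disrupted stretch is unknown here, so F2r is no check of the genotype labels. Of the tissue markers with values, 1 of each tissue was above background on all 10 arrays. These were Acta2 of smooth muscle, the epithelial cadherin Cdh1, the leukocyte gene Ptprcap and the fibroblast gene Vim. The uroplakin Upk2 passed on 4 and the leukocyte antigen Ptprc on 4.

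Most cell cycle genes gave faint spots. At least 1 array showed 58 of the 87 probes above background (66.7%), against 65.5% of all probes, and 31 passed on at least 4 arrays (35.6%), against 42% of all probes. On all 10 arrays 7 probes passed (8.05%), against 11.3% of all probes: Ccnd2, Cdc37, Chek1, E2f1, Pold2, Rad51ap1 and Rrm2. By array, the number above background was 23 for PAR1-/- LPS 24 h, 31 for PAR1-/- LPS 4 h, 36 for PAR1-/- SP 24 h, 36 for PAR1-/- SP 4 h and 21 for PAR1-/- saline. For WT bladders the numbers were 10, 35, 24, 32 and 23 in the same order of conditions. Of all probes 39%, 40.9%, 42.7%, 47% and 30.4% passed on the PAR1-/- arrays and 13.3%, 39.6%, 30.1%, 43.8% and 31.3% on the WT arrays. The share of cell cycle probes above background was lower than that of all probes on 9 of the arrays and slightly above it on the WT LPS 4 h array (40.2%).
The 29 probes under background everywhere include much of the core machinery: the kinases Cdk1, Cdk2, Cdk4 and Cdk7, the cyclins Ccna2 and Ccnd1, the replication genes Mcm2, Orc3, Orc6, Pole and Pole2, and the mitotic genes Plk1, Bub1b, Bub3 and Mad2l1. The others were Btg2, Ccng1, Ccng2, Ccni, Cdc6, Cdk5r1, Chek2, E2f3, Gadd45g, Rad1, Rad17, Rad23b, Rb1 and Rbl2. Ccnd1, which opens the G1 phase, lay between 10 and 15 in PAR1-/- and between 7 and 15 in WT bladders. Cdk1, the mitotic kinase, lay between 9 and 12 in PAR1-/- and between 9 and 15 in WT bladders. A change of these genes was not detectable at this signal.

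**Figure D1:**
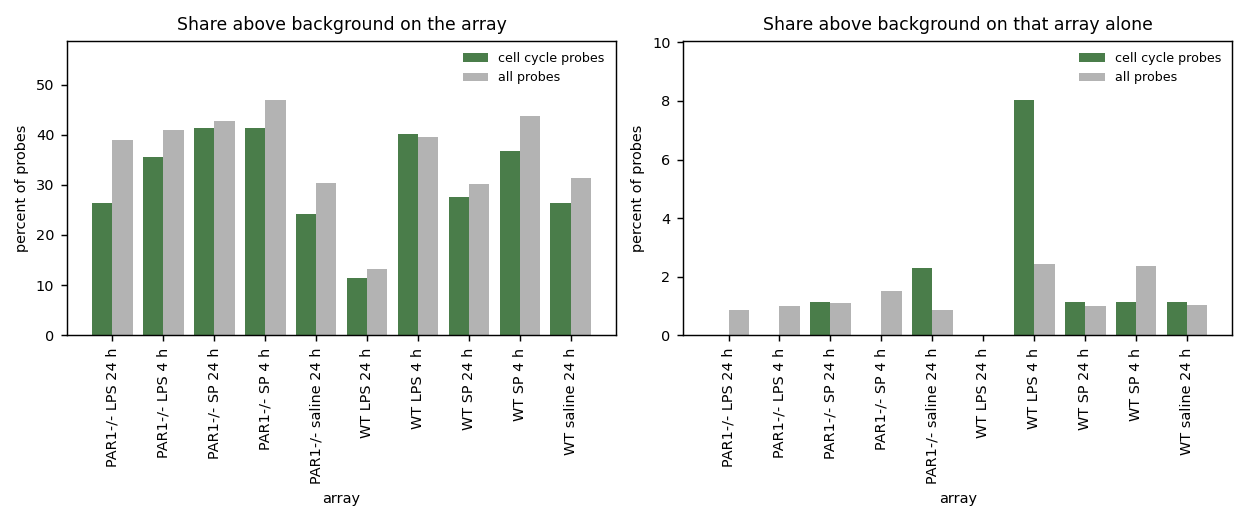
Share of probes above background (percent, y axis) on each of 10 arrays (x axis), for 87 cell cycle probes (green) and all 4794 probes (grey). The left panel counts probes above background on the array and the right panel those above background on that array and no other, where the WT LPS 4 h array holds 8.05% of the cell cycle probes and 2.42% of all probes.

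A few genes passed the background on 1 array alone, several of them narrowly. On the WT LPS 4 h array 7 cell cycle probes (8.05%) were above background and on no other array, against 2.42% of all probes: Ccnb2, Cdkl2, Mad1l1, Orc2, Orc4, Pcna and Rad9a. The other arrays held 0 to 2 such probes each: Cdkn1c and Mcm4 for PAR1-/- saline (0.855% of all probes), Ccnc for PAR1-/- SP 24 h (1.11%), E2f5 for WT SP 24 h (0.98%), Ccne1 for WT SP 4 h (2.38%) and Ccnf for WT saline (1.02%). The PAR1-/- LPS 24 h, LPS 4 h and SP 4 h arrays had none, against 0.855%, 1% and 1.52% of all probes, nor had the WT LPS 24 h array, where no probe of any kind stood alone. Against the threshold of 21.6 on the WT LPS 4 h array, Pcna had 83, Rad9a 62, Ccnb2 46, Orc2 32, Orc4 27, Mad1l1 24 and Cdkl2 23. Elsewhere Mcm4 had 13 and Cdkn1c 15 against 12.2, E2f5 14 against 12.1 and Ccnf 17 against 12.6. Ccnc had 21 against 18.9 and Ccne1 25 against 22.5. These sets have no replicate array.

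Pcna, the sliding clamp of the replicative polymerases, had an intensity of 83 on the WT LPS 4 h array. On the PAR1-/- arrays it was 14 for LPS 24 h, 12 for LPS 4 h, 10 for SP 24 h, 14 for SP 4 h and 7 for saline. The other WT arrays had 15 for LPS 24 h, 10 for SP 24 h, 18 for SP 4 h and 10 for saline. The WT LPS 4 h spot stood alone, and its normalized ratio to WT saline was at least 3.56, a lower bound because saline was under background. Cdc45, which joins the Mcm helicase to the firing origin, had 145 on the WT LPS 4 h array. In PAR1-/- bladders Cdc45 had 16, 12, 16 and 23 after challenge, in the same order, and 11 after saline. WT bladders otherwise gave 15 for LPS 24 h, 12 for SP 24 h, 16 for SP 4 h and 14 for saline. Only WT LPS 4 h and WT saline passed the background, with a ratio of 5.45.
Ccnb2, a mitotic B cyclin, had 46 on the WT LPS 4 h array and 9 to 16 on the 9 others. Rad9a, a subunit of the damage-sensing clamp that resembles Pcna, had 62 there and 9 to 16 elsewhere. Their ratios to WT saline were at least 1.99 and at least 2.67. Orc2 and Orc4, subunits of the origin recognition complex, had 32 and 27 there, with ratios of at least 1.39 and 1.17. Mcm6, a subunit of the replicative helicase, had 42 there and 25 on the PAR1-/- SP 4 h array, and was under background on the 8 others. Against the matched WT SP 4 h array, the WT LPS 4 h array was more than 3-fold higher for Cdc45 (at least 9.66), Pcna (at least 5.56), Rad9a (at least 4.17) and Ccnb2 (at least 3.10), 4 of 39 cell cycle probes with a ratio or bound, while 3.8% of all probes were. Btg3 was more than 3-fold lower in that pair, against 0.79% of all probes.

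**Figure D2:**
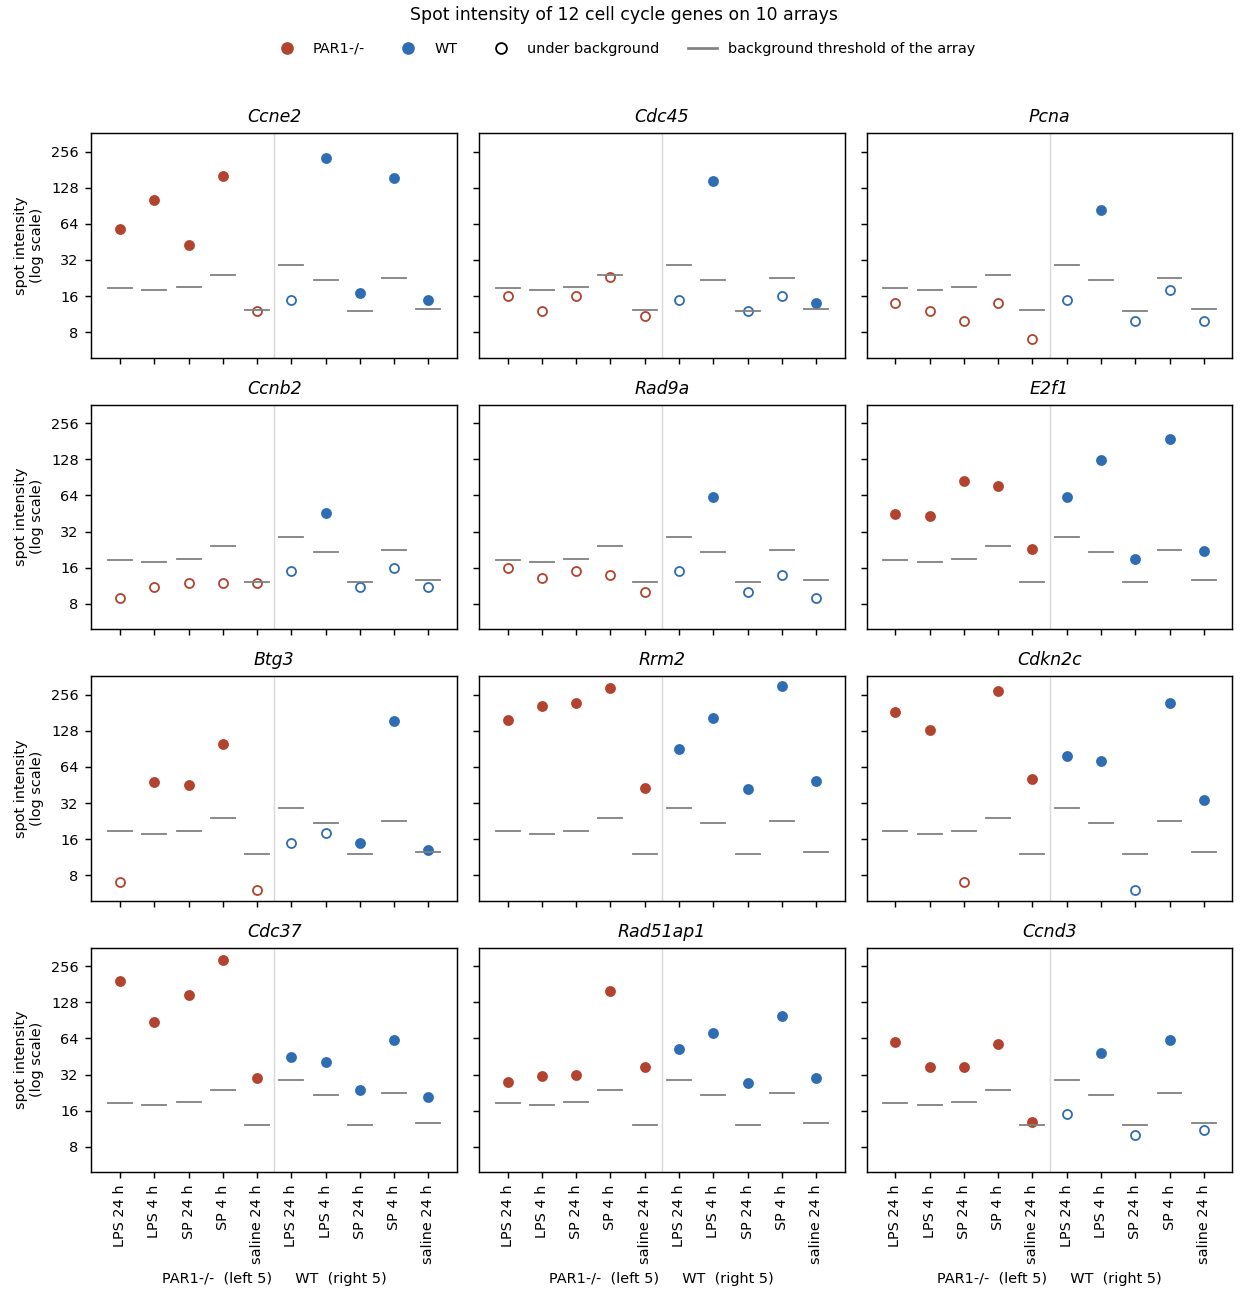
Spot intensity (log scale, y axis) of 12 cell cycle genes on 10 arrays (x axis, PAR1-/- left in red, WT right in blue). Open circles are under the background threshold of their array (grey bars); Pcna, Ccnb2 and Rad9a pass it on the WT LPS 4 h array only, and Cdkn2c fails it on both SP 24 h arrays only.

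Among the cyclins, Ccne2 was the gene with the largest ratio to saline in the set. Ccne2 is an E cyclin that starts the S phase with Cdk2. Its PAR1-/- intensities were 58 for LPS 24 h, 101 for LPS 4 h, 43 for SP 24 h, 161 for SP 4 h and 12 for saline. The WT intensities were 15 for LPS 24 h, 228 for LPS 4 h, 17 for SP 24 h, 155 for SP 4 h and 15 for saline. All 4 of the arrays at 4 h were above all others, and the saline arrays were the lowest of their genotype (WT saline tied with WT LPS at 24 h). With LPS at 4 h the ratio to saline was at least 3.60 in PAR1-/- and 7.86 in WT bladders, and with SP at that time at least 2.83 in PAR1-/- and 2.87 in WT bladders. Set against 4 h, the WT LPS 24 h level was at most 0.137-fold. At 24 h the bounds were at least 2.24 after LPS and 1.57 after SP in PAR1-/- bladders, and the WT ratio after SP was 1.14. The 24 h minus 4 h difference over the 8 challenged arrays was -1.43 ± 0.34 (SE) on the log2 scale, with an unadjusted p of 0.00288 and an adjusted p of 0.308 (limma). Challenge gave 1.24 ± 0.54 (SE) with an adjusted p of 0.404 (limma), and Ccne2 was called for both time and challenge without normalization, with quantile normalization and without the filter on dim probes. The 5 probes outside the set whose levels went most with Ccne2 over the 10 arrays were Elk4 (r = 0.97), Snx1 (0.94), Reg3a (0.91), Hnrnpa2b1 (0.90) and Acp5 (0.90), out of 2014 probes that share the same libraries and scaling.
Ccnd3, a D cyclin, had 60, 37, 37 and 58 after challenge in PAR1-/- bladders, in the order LPS 24 h, LPS 4 h, SP 24 h and SP 4 h, and 13 after saline. WT values were 15, 48, 10 and 62 in that order, and 11 after saline, with both 4 h arrays above background and both 24 h arrays under it. Its ratio to saline was 2.12 and 1.31 on the PAR1-/- LPS 24 h and 4 h arrays, and at least 2.07 on the WT LPS 4 h array. Ccnd2, another D cyclin, had 37, 30, 54 and 94 after challenge in PAR1-/- bladders and 19 after saline, with normalized ratios of 0.67 to 1.11. In WT bladders Ccnd2 had 34, 26, 16 and 68 and 30 after saline, and all 4 normalized ratios lay below 1, from 0.41 to 0.61. Ccne1, the other E cyclin, passed the background on the WT SP 4 h array alone, with 25, against 9 after WT saline. Ccna1, Ccnk, Ccnl1, Ccnc and Ccnf showed no ratio beyond 3-fold, and Ccna2, Ccnd1, Ccng1, Ccng2 and Ccni were under background throughout.

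The cyclin-dependent kinases were counted with the Cdk5 activators Cdk5r1 and Cdk5r2. Of their 12 recovered probes 7 ever passed the background, against 65.5% of all probes. On at least 4 arrays 3 passed, against 42% of all probes. None had a ratio beyond 3-fold. Of all genes, 1.41% exceeded saline 3-fold in PAR1-/- and 3.31% in WT bladders, and 1.45% and 0.986% were more than 3-fold below it. For such shares 12 probes are few. Cdk14 passed on both WT arrays at 4 h and on no other, with 47 for LPS and 38 for SP, against 9 for saline. No other cell cycle probe had that pattern (1.15%, against 0.709% of all probes). Cdk5, a kinase best known from neurons, passed on the corresponding PAR1-/- pair alone (0.334% of all probes), and narrowly. It had 18 for LPS against a threshold of 17.83 and 26 for SP against 24.02. PAR1-/- saline had 12, under its threshold of 12.16. After normalization Cdk5 was lower on that pair, with 16.36 for LPS and 12.64 for SP, than on the PAR1-/- saline array, with 22.01. Cdk5r2, an activator of Cdk5, had 30, 39, 37 and 68 after challenge and 18 after saline in PAR1-/- bladders, and 15, 57, 22 and 98 after challenge and 22 after saline in WT bladders. The PAR1-/- minus WT difference of Cdk5r2 was -0.44 ± 0.18 (SE) with an adjusted p of 0.348 (limma). The 2 probes of Cdk11b, a kinase tied to transcription and splicing, correlated over the 10 arrays with r = 0.83 for log2 intensity and r = 0.47 after normalization.

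The Cdk inhibitors held the clearest low spots. Cdkn2c, the Ink4 protein p18 that blocks Cdk4 and Cdk6, had 183 for LPS 24 h, 131 for LPS 4 h, 7 for SP 24 h, 273 for SP 4 h and 51 for saline on the PAR1-/- arrays. On the WT arrays Cdkn2c had 79 for LPS 24 h, 71 for LPS 4 h, 6 for SP 24 h, 217 for SP 4 h and 34 for saline. It was under background on those SP 24 h arrays and above it on the 8 others. Both SP 24 h spots also lay below the commonest value of their array, 12 in PAR1-/- and 9 in WT bladders. A fault of these spots was not tested. The ratio to saline after SP at 24 h was at most 0.127 in PAR1-/- and at most 0.291 in WT bladders, and LPS at 24 h exceeded SP at 24 h at least 8.10-fold in PAR1-/- and at least 4.29-fold in WT bladders. The SP 24 h level over that at 4 h was at most 0.166 in PAR1-/- and at most 0.198 in WT bladders. The 6 other ratios to saline of Cdkn2c lay between 0.765 and 1.47.
Cdkn1a, the p53 target p21, had 14, 10, 20 and 15 after challenge in PAR1-/- bladders and 10 after saline, and 15, 30, 9 and 29 in WT bladders and 14 after saline. It was above background on 1 PAR1-/- array and 3 WT arrays. The PAR1-/- minus WT difference was -0.49 ± 0.18 (SE), with an adjusted p of 0.339 (limma), and LPS minus SP was 0.43 ± 0.18 with an adjusted p of 0.495 (limma). The spots under background entered these fits at the threshold of their array, from 11.8 to 29.2 after normalization. Part of both estimates is therefore a difference between thresholds. Cdkn1b (p27), Cdkn2b (p15) and Cdkn2d (p19) passed on 4, 4 and 6 arrays with no ratio beyond 3-fold. Cdkn2a had 13 to 17 in PAR1-/- and 8 to 17 in WT bladders. Cdkn1c (p57) passed on the PAR1-/- saline array alone.

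E2f1, a transcription factor of the G1 to S transition, had 45, 43, 85 and 76 after challenge in PAR1-/- bladders, in the order LPS 24 h, LPS 4 h, SP 24 h and SP 4 h, and 23 after saline. E2f1 had 62, 126, 19 and 190 in WT bladders in that order, and 22 after saline. The saline arrays were close, whereas both 4 h arrays were lower in PAR1-/- bladders. The PAR1-/- over WT ratio was 0.309 with LPS at 4 h and 0.351 with SP at 4 h, 0.592 with LPS at 24 h and 1.84 with SP at 24 h. Over saline, E2f1 had ratios of 0.742 for LPS and 0.662 for SP at 4 h in PAR1-/- bladders, and of 2.78 and 2.19 in WT bladders. The genotype difference of E2f1 was -0.57 ± 0.36 (SE), with an adjusted p of 0.447 (limma), and its interaction of genotype and challenge -0.98 ± 0.77 (SE), with an adjusted p of 0.998 (limma). Rb1, the retinoblastoma protein, and Rbl2 were under background on all arrays.

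Among the replication genes, Rrm2, the small subunit of ribonucleotide reductase, was above background on every array. Rrm2 had 158 for LPS 24 h, 205 for LPS 4 h, 218 for SP 24 h, 291 for SP 4 h and 43 for saline on the PAR1-/- arrays. On the WT arrays Rrm2 had 91, 163, 42 and 300 in that order, and 49 for saline. All challenged arrays but WT SP 24 h were above saline by intensity, and the totals of those arrays were higher as well. After normalization the ratios of Rrm2 to saline lay between 1.00 and 1.45 in PAR1-/- and between 0.82 and 1.39 in WT bladders. Its partner Rrm1 had 13 to 26 in PAR1-/- and 14 to 29 in WT bladders, with a 24 h minus 4 h difference of 0.47 ± 0.19 (SE) and an adjusted p of 0.308 (limma). Both WT LPS spots of Rrm1 were under background and entered that fit at normalized thresholds of 29.2 at 24 h and 20.8 at 4 h.
Top2a, the topoisomerase of dividing cells, had 26, 52, 33 and 84 after challenge in PAR1-/- bladders, in the same order, and 15 after saline. WT values were 15, 45, 17 and 85, and 19 after saline. Both 4 h arrays exceeded the 24 h arrays of their agent by intensity in both genotypes, and the 24 h minus 4 h difference was -0.57 ± 0.17 (SE) with an adjusted p of 0.308 (limma). Pold2, a subunit of polymerase delta, had 44, 93, 85 and 145 after challenge and 20 after saline in PAR1-/- bladders, and 36, 32, 27 and 79 after challenge and 28 after saline in WT bladders. Its ratios to saline were 0.95 to 1.80 in PAR1-/- and 0.54 to 0.94 in WT bladders. Pola2, a subunit of the primase complex, differed by 0.44 ± 0.17 (SE) between PAR1-/- and WT, with an adjusted p of 0.339 (limma). Of the other origin and helicase genes, Orc5 passed on 7 arrays, Mcm5 on 2 and Mcm4 on 1.

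Among the Cdc genes Cdc37, a cochaperone that hands kinases such as Cdk4 to Hsp90, differed most by genotype. PAR1-/- bladders had 194 for LPS 24 h, 87 for LPS 4 h, 148 for SP 24 h, 285 for SP 4 h and 30 for saline. WT bladders had 45, 41, 24, 62 and 21 in the same order. The PAR1-/- array was the higher in all 5 pairs, with normalized ratios of 3.0, 1.80, 2.30, 3.04 and 1.70. The PAR1-/- minus WT difference was 1.20 ± 0.20 (SE), with an unadjusted p of 0.000151 and an adjusted p of 0.179 (limma), the lowest of the set, and it was called under some other processings given in the closing section. Cdc42, a regulator of cell polarity, had 25 for LPS and 22 for SP at 4 h in PAR1-/- bladders, against 9 for saline. WT bladders had 56 and 46 of Cdc42, against 10 for saline, so that the genotypes differed 0.417-fold for LPS and at most 0.445-fold for SP. Cdc7, the kinase that fires origins, had 32, 18, 24 and 56 after challenge and 19 after saline in PAR1-/- bladders, and 31, 16, 16 and 36 after challenge and 20 after saline in WT bladders. By intensity 5 of the 8 challenged arrays were above saline, whereas the normalized ratios of Cdc7 were below 1 in all 8 comparisons, from 0.42 to 0.77 in PAR1-/- and from at most 0.55 to 0.83 in WT bladders, and its challenge effect was -0.70 ± 0.28 (SE) with an adjusted p of 0.395 (limma).

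Btg3, an antiproliferative protein of the Tob family, had 7 for LPS 24 h, 48 for LPS 4 h, 45 for SP 24 h, 99 for SP 4 h and 6 for saline in PAR1-/- bladders. WT values of Btg3 were 15, 18, 15 and 154 in that order, and 13 for saline. SP at 4 h gave the highest spot in both genotypes. The ratio of that array to saline was at least 1.84 in PAR1-/- and 3.38 in WT bladders. After LPS at 4 h Btg3 was above background in PAR1-/- bladders only, with a PAR1-/- over WT ratio of at least 1.95. Btg2 had 9 to 13 in PAR1-/- and 10 to 15 in WT bladders, under background throughout.

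Of the damage genes, Rad51ap1, a DNA repair gene, had 28, 31, 32 and 160 after challenge in PAR1-/- bladders, in the order LPS 24 h, LPS 4 h, SP 24 h and SP 4 h, and 37 after saline. WT bladders had 52, 71, 27 and 99, and 30 after saline. Its normalized ratio to saline was 0.300, 0.304 and 0.303 on the PAR1-/- LPS 24 h, LPS 4 h and SP 24 h arrays and 0.710 on the PAR1-/- SP 4 h array, against 0.85 to 1.09 in WT bladders. The unnormalized ratios of these 3 arrays were 0.757, 0.838 and 0.865, so the call rests on the normalization.
Chek1, the checkpoint kinase of stalled forks, had 126, 73, 70 and 183 after challenge and 32 after saline in PAR1-/- bladders, and 37, 51, 33 and 117 after challenge and 19 after saline in WT bladders. All challenged arrays exceeded saline by intensity, and the normalized ratios were 0.73 to 1.32 in PAR1-/- and 1.07 to 1.89 in WT bladders. Gadd45a and Gadd45b, stress genes induced by damage, passed on 4 and 7 arrays. Gadd45b had 18, 31, 24 and 52 after challenge and 12 after saline in PAR1-/- bladders, and 15, 22, 15 and 55 after challenge and 13 after saline in WT bladders. By intensity Gadd45b was highest after SP at 4 h in both. After normalization WT bladders were still highest there (31.1), whereas PAR1-/- bladders had 27.0 for LPS and 23.3 for SP at 4 h. Rad50, of the break-sensing complex, differed by -0.46 ± 0.19 (SE) between PAR1-/- and WT, with an adjusted p of 0.348 (limma). Of the 6 mitotic genes Bub1 and Mad1l1 ever passed the background, against 65.5% of all probes, and 6 genes are few for such a share. Bub1 had 20 and 41 on the PAR1-/- SP 24 h and SP 4 h arrays, against thresholds of 18.9 and 24.0. Mad1l1 had 24 on the WT LPS 4 h array, against 21.6.

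**Figure D3:**
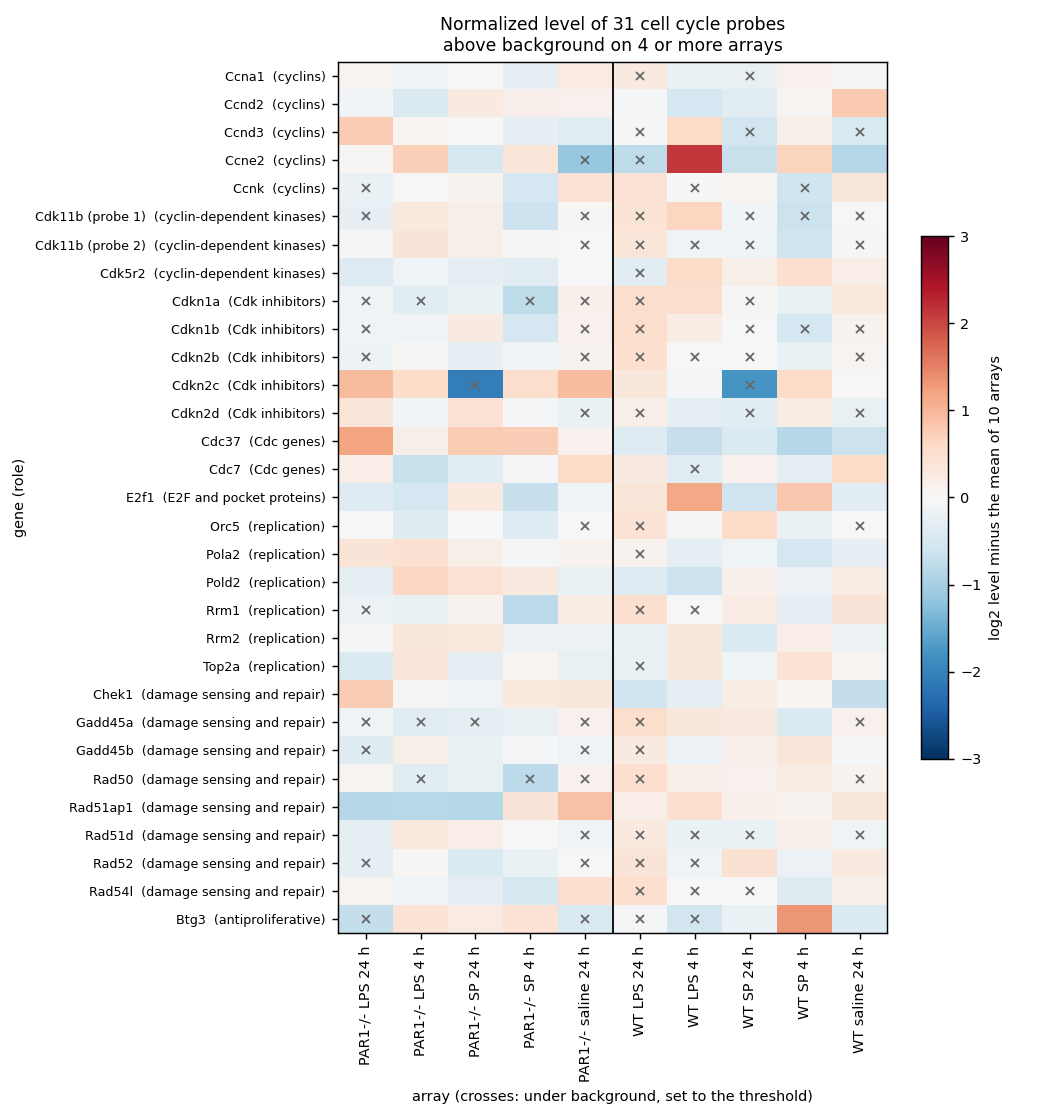
Normalized level (log2, minus the mean over the arrays, colour) of the 31 cell cycle probes above background on at least 4 arrays, by role (rows) and array (columns, PAR1-/- left of WT). Crosses mark spots under background, drawn at the threshold; the darkest cells are Cdkn2c on both SP 24 h arrays and Ccne2 on the WT LPS 4 h array.

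By comparison with the saline array of the genotype, ratios or bounds beyond 3-fold were few. In PAR1-/- bladders 1 of 86 genes, Ccne2, exceeded 3-fold in at least 1 of 4 comparisons (1.16%, against 1.41% of all genes), and in WT bladders 4 did, Cdc45, Pcna, Btg3 and Ccne2 (4.65%, against 3.31%). More than 3-fold below saline were Cdkn2c and Rad51ap1 in PAR1-/- bladders (2.33%, against 1.45%) and Cdkn2c in WT bladders (1.16%, against 0.986%). These shares are near those of all genes. For LPS at 4 h, 1 of 29 probes exceeded 3-fold in PAR1-/- bladders, against 1.95% of all probes, and 3 of 39 in WT bladders, against 5.41%. With SP at 4 h, 0 of 27 exceeded 3-fold in PAR1-/- bladders, against 1.33% of all probes, and 1 of 29 in WT bladders, against 4.59%. At 24 h no cell cycle probe exceeded 3-fold, against 1.32% of all probes after LPS and 1.6% after SP in PAR1-/- bladders, and 1.31% and 0.772% in WT bladders. More than 3-fold below saline were 1 of 24 cell cycle probes for PAR1-/- LPS 24 h (1.48% of all probes), 1 of 29 for PAR1-/- LPS 4 h (1.55%), 2 of 28 for PAR1-/- SP 24 h (1.66%), 0 of 27 for PAR1-/- SP 4 h (2.49%), 0 of 13 for WT LPS 24 h (0.201%), 0 of 39 for WT LPS 4 h (1.06%), 1 of 30 for WT SP 24 h (0.496%) and 0 of 29 for WT SP 4 h (1.6%).
The WT-only criterion takes genes above 3-fold in at least 1 WT comparison with no ratio or bound beyond 3-fold in PAR1-/- bladders. Cdc45, Pcna and Btg3 met it (3.49%, against 2.73% of all genes). Cdc45 and Pcna were under background on all PAR1-/- arrays. No ratio was formed for them there, so the PAR1-/- part of the criterion could not fail. Btg3 had a lower bound of 1.84 in PAR1-/- bladders that leaves its ratio there unknown. It did not meet the criterion without a floor, without normalization or with a shift of each array. No cell cycle gene met the mirror criterion with the genotypes exchanged, against 0.923% of all genes. Just inside the limit of 3-fold lay Btg3 in WT bladders after SP at 4 h (3.38), and just outside it Ccne2 after SP at 4 h (2.87 in WT) and E2f1 after LPS at 4 h (2.78 in WT). Without the WT LPS 4 h array the number of WT genes above 3-fold was 1 and that of genes meeting the criterion was 1, Btg3 in each case. The median log2 ratio of the cell cycle probes lay between -0.21 and 0.20 over the 8 comparisons, and that of all probes between -0.15 and 0.08. On the WT LPS 4 h array, with a median of 0.20 over 39 cell cycle probes and 0.08 over 2180 probes, 23 of the 39 values were bounds, and with quantile normalization the median of the cell cycle probes was -0.003. Without normalization 4 of the 8 medians turned from below to above 0.

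**Figure D4:**
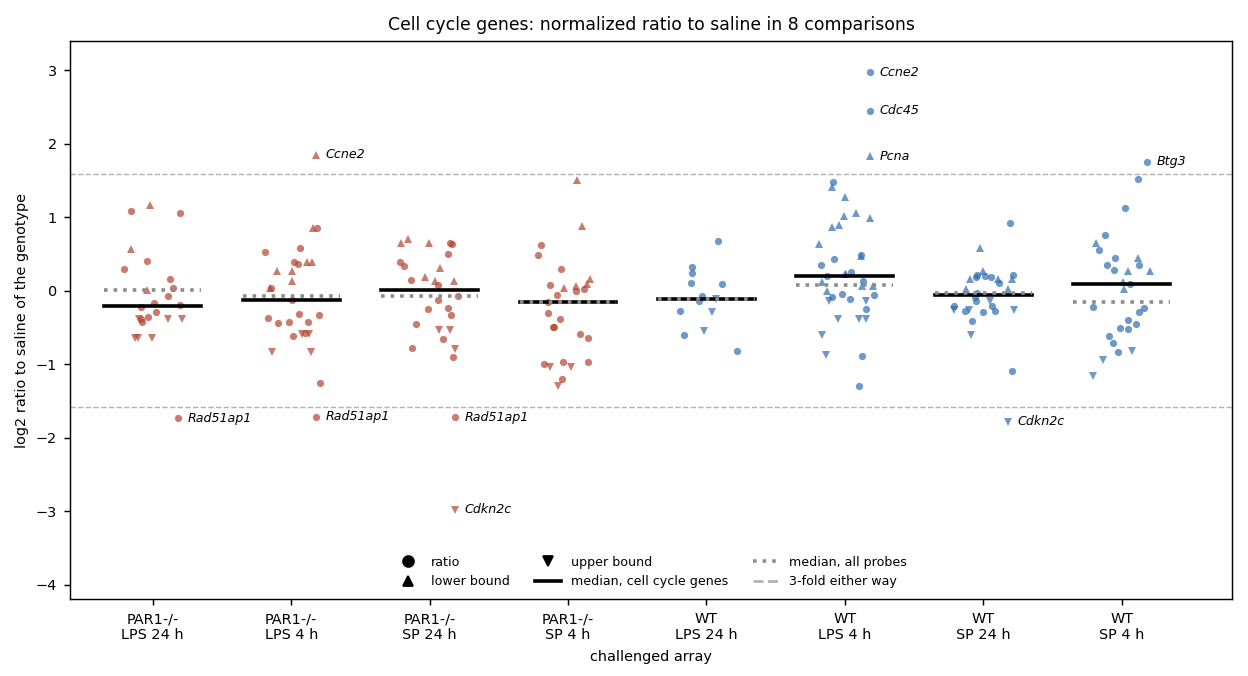
Normalized log2 ratio to the saline array of the genotype (y axis) for cell cycle probes in 8 comparisons (x axis, PAR1-/- in red, WT in blue). Triangles are bounds, solid bars the medians of cell cycle probes, dotted bars those of all probes, dashed lines 3-fold either way; Ccne2, Cdc45 and Pcna lie above the upper line after LPS at 4 h in WT bladders.

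Set directly against WT, the PAR1-/- LPS 4 h array was more than 3-fold lower for Cdc45 (at most 0.119), Pcna (at most 0.207), Rad9a (at most 0.276) and E2f1 (0.309), 4 of 41 probes, against 4.31% of all probes, and higher for 0, against 0.242%. Cdc37 was more than 3-fold higher on the PAR1-/- array for LPS 24 h, 1 of 14 probes (2.76% of all probes, and 3.72% were lower), and for SP 4 h, 1 of 38 (0.761%, and 2.7% were lower). Between the genotypes 0 of 32 cell cycle probes passed 3-fold for SP 24 h (2.01% of all probes higher and 2.07% lower) and 0 of 28 for saline (0.764% and 0.546%). Among the other matched pairs of arrays, LPS over SP gave Cdkn2c alone at 24 h in PAR1-/- bladders, 1 of 29 (0.484% of all probes higher, 0.677% lower), and in WT bladders, 1 of 15 (2.26% and 2.06%). At 4 h the PAR1-/- pair gave 0 of 33 (0.625% and 0.192%). For 24 h over 4 h, Ccne2 and Cdc45 were more than 3-fold lower in WT bladders after LPS, 2 of 24 (6.32% of all probes lower, 1.52% higher), and Cdkn2c after SP, 1 of 32 (4% and 1.86%). In PAR1-/- bladders the same ratio gave 0 of 32 after LPS (0.957% lower, 0.335% higher) and Cdkn2c after SP, 1 of 38 (0.466% and 0.326%).
The saline arrays give the only view of the spread: the log2 ratio of PAR1-/- to WT saline had an SD of 0.48 over 16 cell cycle probes and of 0.46 over 1123 probes above background on both, which holds the difference of genotype as well.

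Over the arrays together, no cell cycle probe passed an adjusted p of 0.05 in limma for genotype, time, stimulus, challenge or the interaction of genotype and challenge, among 31 cell cycle probes in 2014 tested. Genotype had 5 of 31 at an unadjusted p under 0.05, against 14% of all probes, and time had 4, against 15.4%. Stimulus had 2 (9.63% of all probes), challenge 3 (11.4%) and the interaction 0 (3.38%). The lowest adjusted p of a cell cycle probe in limma was 0.179 in the genotype test, 0.308 in that of time, 0.495 in that of stimulus, 0.395 in that of challenge and 0.998 in that of the interaction. Among all probes 2 were called higher after challenge (0.0993%) and 0 in the other tests. These p-values measure the spread between conditions and not between animals. Spots under background entered the fits at thresholds that differ between arrays after normalization, which adds to the estimates of dim probes.

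A further list of 94 genes of replication, repair and mitosis outside the rule had values for 58. Of the 27 tested, 0 passed the adjusted p in any of the 5 limma tests, while at an unadjusted p under 0.05 the genotype test had 5 (14% of all probes), that of time 3 (15.4%), that of stimulus 6 (9.63%), that of challenge 5 (11.4%) and that of the interaction 0 (3.38%). Against saline, Ercc5, a nuclease of excision repair, Cks1b, a Cdk-binding subunit, and Tk1, the thymidine kinase of S phase, exceeded 3-fold in at least 1 comparison, where 1.41% of all genes did in PAR1-/- and 3.31% in WT bladders, and no gene of the list was more than 3-fold below saline. Cks1b did so for WT SP 24 h only, with 39 against 6 after WT saline. That saline spot was under background and below the commonest value of its array, 9. Ercc5 had 260, 253, 371 and 273 after challenge and 23 after saline in PAR1-/- bladders, and 131, 247, 20 and 429 after challenge and 30 after saline in WT bladders. Tk1 had 61, 35, 63 and 119 after challenge and 20 after saline in PAR1-/- bladders, and 15, 72, 21 and 155 after challenge and 14 after saline in WT bladders. By intensity Tk1 was highest after SP at 4 h in both, on the array with the highest total of each genotype.

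Markers of other cells moved with some of these arrays. Acta2 of smooth muscle had 194 on the WT LPS 4 h array and 23 on the WT saline array, and its normalized ratio to saline was above 3-fold on both WT LPS arrays and more than 3-fold below it on the PAR1-/- LPS 24 h, SP 24 h and SP 4 h arrays. By intensity Acta2 had 131, 151 and 29 on these 3 arrays and 112 after PAR1-/- saline, and the median log2 ratio of the smooth muscle markers there was 0.25, 0.68 and 0.06. Of the list, 2 of the 6 smooth muscle markers were above background on the WT LPS 4 h array and 3 on the WT saline array. The summed intensity of these 6 was 263 to 309 after challenge and 161 after saline in PAR1-/- bladders, and 103 to 325 after challenge and 82 after saline in WT bladders. After normalization it was 134 to 249 after challenge and 436 after saline in PAR1-/- bladders, the other way round, and 135 to 307 after challenge and 147 after saline in WT bladders. For 14 leukocyte markers, 5 were above background on the WT LPS 4 h and 6 on the WT saline array, with sums of 269 and 192 by intensity and of 258 and 348 after normalization. Their sums were 267 to 431 after challenge and 157 after saline in PAR1-/- bladders, and 174 to 352 after challenge and 192 after saline in WT bladders. After normalization they were 201 to 264 after challenge and 287 after saline in PAR1-/- bladders, and 213 to 304 after challenge and 348 after saline in WT bladders. The marker sums include spots under background, which were not raised to the threshold. Only 1 to 7 of the 14 leukocyte markers passed the background on an array, so these sums do not show the direction of a change in leukocyte RNA. The markers Cd3e, Cd14, Cd68, Cd79a and S100a8 were under background on all 10 arrays, as were Col1a2, Dcn and Fn1 of the 4 fibroblast markers. The leukocyte marker Ptprcap and the fibroblast marker Vim were above it on all 10, and the leukocyte markers Csf1r on 9 and S100a9 on 7. The part of these cells in the ratios above was not tested.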

How the data were processed

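Bladder RNA of 10 pools was hybridized to Clontech Atlas arrays, read on a phosphor screen and quantified by the authors in AtlasImage. The deposited unit is a score, standardized for each probe over the 10 arrays, as the values show and the methods do not state. For each probe whole-number intensities up to 3000 that return its 10 scores were sought, with fewer than 0.01 chance matches allowed, and 4794 of 5030 probes were recovered (Python 3.11.15, numba 0.67.0). The 236 others were left out. A factor common to a probe cannot be seen, so levels assume that it is 1.
Probes were named from the annotation table given with the array (4633 with 1 gene, 5 with several, 392 with none), and all 89 cell cycle probes matched the RefSeq table.
The background threshold lay 3 SD above the mode of each array. On the WT LPS 24 h array, where 4145 probes held 1 value, it was the next value, 29. Arrays were scaled by robust regression (rlm of MASS 7.3.60.0.1) against the average array, using the 543 probes above background everywhere. Spots under background were raised to the threshold, which turns a ratio into a bound, and a ratio with both spots under background was not formed. After scaling, the thresholds ran from 11.8 on the PAR1-/- SP 4 h array to 29.2 on the WT LPS 24 h array.
Over 2014 probes above background on at least 4 arrays, limma 3.58.1 (R 4.3.3) tested genotype (with condition as block), time, stimulus, challenge and the interaction, with Benjamini-Hochberg adjustment at 0.05. The precision of a single ratio is unknown, since no condition has a second array.
The members and lists were chosen with earlier results of these data known. Genes named are those beyond 3-fold, those above background on all arrays, those of highest mean level and a list of well-known regulators. Other genes named were chosen after their values were seen, among them Ccna1, Ccnk, Cdk14, Cdk5, Cdc42, Cdc7, Orc2 and Orc4. Alternatives changed the normalization, the background, the fold, the reference, the filter and the arrays. The limma fits and the recovery were tested on simulated data.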

Additional observations from a re-analysis of the deposited data

How the results depend on the processing

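Numbers are cell cycle genes or probes. Without normalization between arrays, genes above 3-fold were 22 in PAR1-/- and 23 in WT bladders, none was more than 3-fold below saline in either (0 and 0), and 10 met the WT-only criterion. With a shift of each array there were 0 above and 8 below in PAR1-/- bladders, and with quantile normalization 2 were below in WT bladders. A 2-fold limit gave 3 in PAR1-/- and 9 in WT bladders above, 7 and 3 below, and 7 by the criterion. Without a floor it was 2 and 8 above, 7 and 3 below, and 6 by the criterion. Cdc45 and Pcna met the criterion under each of these settings, whereas Btg3 did not without normalization, with the shift or without a floor. Among these settings only that without a floor formed PAR1-/- ratios for Cdc45 and Pcna. With 24 h arrays only, 0 were above in PAR1-/- bladders, 0 in WT bladders, and 0 met the criterion. With the mean of both saline arrays as reference, 1 was below in PAR1-/- bladders. Leaving out 1 challenged array, the numbers ranged from 0 to 1 above in PAR1-/- and 1 to 4 above in WT bladders, from 1 to 2 below in PAR1-/- and 0 to 1 below in WT bladders, and from 1 to 4 by the criterion. The arrays that moved them were PAR1-/- LPS 4 h (Ccne2), PAR1-/- SP 24 h and WT SP 24 h (Cdkn2c), WT LPS 4 h (Ccne2, Cdc45 and Pcna) and WT SP 4 h (Btg3, with 3 WT genes above and 2 by the criterion); these leave-outs were chosen after seeing the data, except for WT LPS 24 h.
In limma, members called for genotype numbered 1 (Cdc37) without normalization, with the shift, with quantile normalization and without a filter on dim probes, among 57, 60, 22 and 2 calls over all probes. For time they numbered 2 without normalization (Cdkn2c and Ccne2, of 75 calls), 1 with quantile normalization (Ccne2, of 10) and 50 without the filter (of 2874). For stimulus they numbered 51 without the filter (of 2744). For challenge they numbered 3 without normalization (Cdc37, Rrm2 and Ccne2, of 237), 1 with quantile normalization (Ccne2, of 43), 1 without the filter (Ccne2, of 60) and 1 with a common floor chosen after seeing the data (Cdc7, of 23). The fits without the filter hold all 87 cell cycle probes of 4794, among them the 29 never above background, which sit at the floor of every array. Leaving out each array in turn called 0 members in each test, and the interaction could not be fitted without a saline array and had 0 calls in every alternative run. Of the values of ratios beyond 3-fold and of medians under these settings, 40 kept within the saline spread and 22 moved beyond it. Without normalization the median log2 ratio was 0.92 for PAR1-/- LPS 24 h, 1.12 for PAR1-/- LPS 4 h, 1.79 for PAR1-/- SP 4 h and 0.92 for WT LPS 24 h, all below 0 with it. The cause of the changes was not tested.
No pairing by animal or replicate was possible because the labels give no replicate numbers that arrays share. The genotype test paired the arrays by condition through its block, and without that block 0 members were called. Every condition has 1 array, and 56 of the 87 probes passed the background on fewer than 4 arrays.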
